A study of Mus musculus with 68 samples.

Results

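The response of the uterus to 24 h of oestradiol (E2) was compared between mice that lacked oestrogen receptor alpha in the uterus and their wild-type littermates. The knockout, ERaUtcKO, carries the genotype Esr1f/f;PgrCre+, in which a floxed Esr1 gene, coding for oestrogen receptor alpha, is removed by Cre recombinase under the progesterone receptor promoter. Deletion is therefore limited to cells in which that promoter has been active. All mice were ovariectomized and on the C57Bl6 strain, and each received 100 ul of saline into the peritoneum, either alone as vehicle or with 250 ng of E2. The uterus was taken 24 h later from both, and ages were not among the labels. The comparison used 12 of the 68 arrays of the series, as 4 groups of 3: littermate vehicle, littermate E2, ERaUtcKO vehicle and ERaUtcKO E2. For each of 30142 genes, the interaction was the E2 response of ERaUtcKO (E2 minus vehicle) minus the E2 response of the littermates, in log2 units of array intensity. A negative interaction means that the knockout response lay below that of the littermates. A gene was called at an adjusted p under 0.05 in limma, a linear model with moderated variances and Benjamini-Hochberg adjustment. The labels do not say more of the replicates than that they are separate samples, whose spread, possibly technical, is what the p values rest on, and the number of arrays limits the precision.

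Oestrogen receptor alpha is a nuclear receptor that binds E2 and regulates transcription. In the uterus of an ovariectomized rodent, E2 first induces early genes and fluid uptake, and about a day later a round of DNA synthesis and division in the epithelium together with secretory differentiation. Part of the epithelial growth is known to be relayed by growth factors, including insulin-like growth factor 1 (IGF1) made by the stroma.

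The littermates responded to E2 across much of the genome, and ERaUtcKO had no called response. In littermates 6152 genes rose (20.4% of those tested) and 10294 fell (34.2%), 2236 (7.42%) and 916 (3.04%) of them by 2-fold or more. In ERaUtcKO limma called 0 of 30142 genes. Its lowest adjusted p was 0.0988, 1151 genes (3.82%) had an unadjusted p under 0.05, and the count stayed at 0 in the 7 other fits. The middle 95% of genes lay between -0.33 and 0.27 in ERaUtcKO and between -1.08 and 1.74 in littermates. The interaction itself was called for 9907 genes (32.9%): 4682 lower (15.5%) and 5225 higher (17.3%). At 2-fold or more these were 2174 (7.21%) and 884 (2.93%). The genes next to the threshold on either side had interactions of 0.43 ± 0.17 (standard error, SE) and 0.47 ± 0.18.

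The balance of higher and lower calls depended on the scale. The median interaction over all genes was 0.13 and that of the littermate response -0.16, because the median gene level was 6.62 to 6.63 on the littermate E2 arrays and 6.66 to 6.80 on the other 9. With each array centred on its median, 2897 genes were higher and 5560 lower, so higher calls made up 34.3% rather than 52.7%. Centring also turned the balance of the littermate response, to 7724 genes higher and 5357 lower. Quantile normalization turned neither. It gave 4292 higher and 3957 lower interactions (52% higher), at a median interaction of 0.03, and 5770 higher and 6456 lower littermate responses. Small positive interactions should be read against that shift of 0.13, and the calls named below are mostly far larger.

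**Figure D1:**
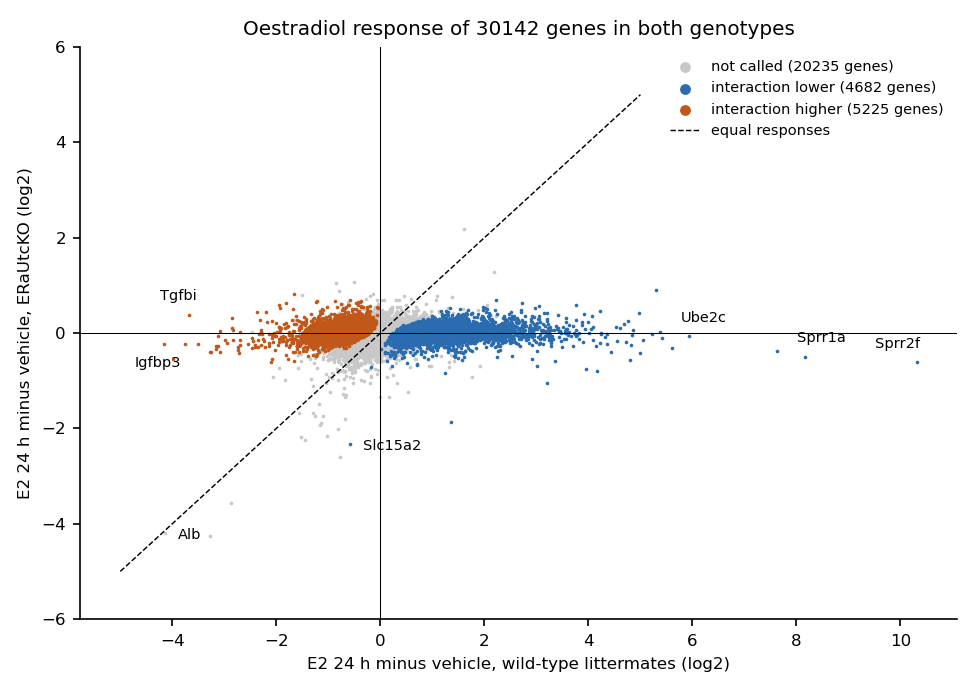
Each point is 1 of 30142 genes, with its E2 response in wild-type littermates on the horizontal axis and in ERaUtcKO on the vertical axis (both log2, 3 arrays a group), coloured by the interaction call. Responses spread from below -4 to 10.32 in littermates and lie in a flat band around 0 in ERaUtcKO; the liver transcript Alb, at -4.13 and -4.19, lies on the dashed line of equal responses.

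Esr1 was lower in every ERaUtcKO array. It stood at 12.17, 12.25 and 12.24 in littermate vehicle arrays and 12.31, 12.23 and 12.39 after E2, against 11.09, 11.10 and 10.86 in ERaUtcKO vehicle arrays and 10.98, 10.81 and 11.01 after E2. The genotypes did not overlap. Under vehicle the difference was -1.21 (adjusted p = 3.66e-07), which is 43.3% of the littermate intensity. Where on Esr1 the probe set lies relative to the deleted exon is not known here, and in whole tissue fewer cells of a type and less RNA per cell cannot be told apart. Esr2, the gene of oestrogen receptor beta, did not exceed the 95th percentile of the antigenomic control probe sets on any of the 12 arrays (4.67 to 5.06).

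The tissue markers were those of uterus. The stromal and muscle genes Dcn and Acta2 lay above 17 on each of the 12 arrays, and the epithelial genes Krt18 and Epcam above 11. Transcripts of other tissues were present unevenly. Alb, made by liver, ranged from 8.68 to 13.30 in littermate vehicle arrays and from 10.99 to 15.27 in ERaUtcKO vehicle arrays, but from 7.01 to 7.55 and from 9.33 to 9.77 after E2. S100a8, a neutrophil gene, reached 13.33 in 1 ERaUtcKO E2 array. The summed level of 7 liver genes, as their mean, ran from 7.55 to 9.52, 6.78 to 6.92, 8.47 to 11.17 and 7.85 to 8.02 in the order of groups given above, and that of 6 adipocyte genes from 6.10 to 8.87 over all arrays. The liver genes were lower after E2 in both genotypes, with a median response of -1.36 in littermates and -1.80 in ERaUtcKO. In ERaUtcKO 6 of the 7 had an unadjusted limma p under 0.05 (3.82% of all genes did), and 0 were called. None of these liver and adipocyte genes had a called interaction in limma, and their part in other results was not tested.

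The 12 lowest interactions began with 3 small proline-rich protein genes. Next came Ube2c, Krt5, Kpna2, Adgrg7, Fdps, H1f5, Mki67, Top2a and Ceacam1, which are described with their groups. Small proline-rich proteins are cross-linked into the cornified envelope of stratified epithelia, and several are strongly induced by oestrogen in the uterus. Sprr2f stood at 6.81, 7.06 and 7.43 in littermate vehicle arrays and at 17.62, 17.61 and 17.02 after E2. In ERaUtcKO it was 6.64, 6.70 and 5.29 under vehicle and 5.47, 5.96 and 5.37 after E2. The littermate E2 arrays stood alone, by a rise of 1280-fold over vehicle, and all other arrays lay within about the same low range. Its interaction was -10.93 ± 1.38 (adjusted p = 2.31e-06). On 3 of the 6 ERaUtcKO arrays Sprr2f did not exceed the 95th percentile of the antigenomic control probe sets of the array, which lay between 5.32 and 6.22 over the 12 arrays, so the size of the interaction depends on the background there. The same held for Sprr1a and Sprr2b on 2 of the 6. Sprr1a had an interaction of -8.67 ± 0.64 (adjusted p = 2.04e-09) and Sprr2b one of -8.01 ± 0.63 (adjusted p = 4.64e-09). Sprr2d, Sprr2e and Sprr2g were also lower (-3.43, -2.21 and -4.59), and Sprr2h less so (-0.55, limma adjusted p = 0.0125). Sprr1b differed: its interaction of 0.48 was not called, and its littermate response was -0.56 (limma adjusted p = 0.0066). These family members are similar in sequence, and signal shared between their probe sets was not tested.

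Late secretory and cornified-envelope genes responded less in ERaUtcKO. Of 25 measured, 20 had a lower interaction (15.5% of all genes did), 0 a higher one and 5 no call, with a median of -3.24 against 0.13 for all genes. The list was written from genes known to rise late after E2, and 22 of them rose in these littermates (median 3.20), whereas the ERaUtcKO median was -0.08. Ltf codes for lactoferrin, a secreted iron-binding protein. It was 9.73, 10.08 and 9.93 in littermate vehicle arrays, 14.07, 12.76 and 13.27 after E2, 9.54, 9.75 and 9.70 in ERaUtcKO vehicle arrays and 10.93, 9.93 and 8.26 after E2. The ERaUtcKO E2 arrays straddled the vehicle values and none reached a littermate E2 array (interaction -3.41 ± 0.85, adjusted p = 0.00364). Muc1, a mucin of the luminal surface, had an interaction of -4.50, Cfb, a complement factor, -3.97, and Padi1, a peptidylarginine deiminase, -4.0. Prap1 and Wfdc2 differed from these. Both are secreted epithelial proteins, neither interaction passed (-1.66 and -0.31), and both were already higher in ERaUtcKO under vehicle, by 2.31 and 1.34, although the Prap1 call was lost (adjusted p = 0.0646) without the third ERaUtcKO vehicle array.

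Klk1, a kallikrein protease, had the largest rise in value among the 25 in ERaUtcKO. It was 5.89, 5.92 and 6.0 in ERaUtcKO vehicle arrays and 6.65, 7.36 and 6.52 after E2, so the 2 groups did not overlap. Klk1 did not exceed the 95th percentile of the antigenomic control probe sets on 2 of the ERaUtcKO vehicle arrays. The size of the ERaUtcKO difference therefore depends on the background there. The difference of 0.90 (95% interval 0.19 to 1.61) did not pass after adjustment over all genes (adjusted p = 1.0, unadjusted p = 0.0151). In littermates Klk1 rose by 5.30 ± 0.34, from between 5.68 and 6.61 to between 10.61 and 12.15, and the interaction was -4.40 ± 0.48 (adjusted p = 3.52e-07).

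**Figure D2:**
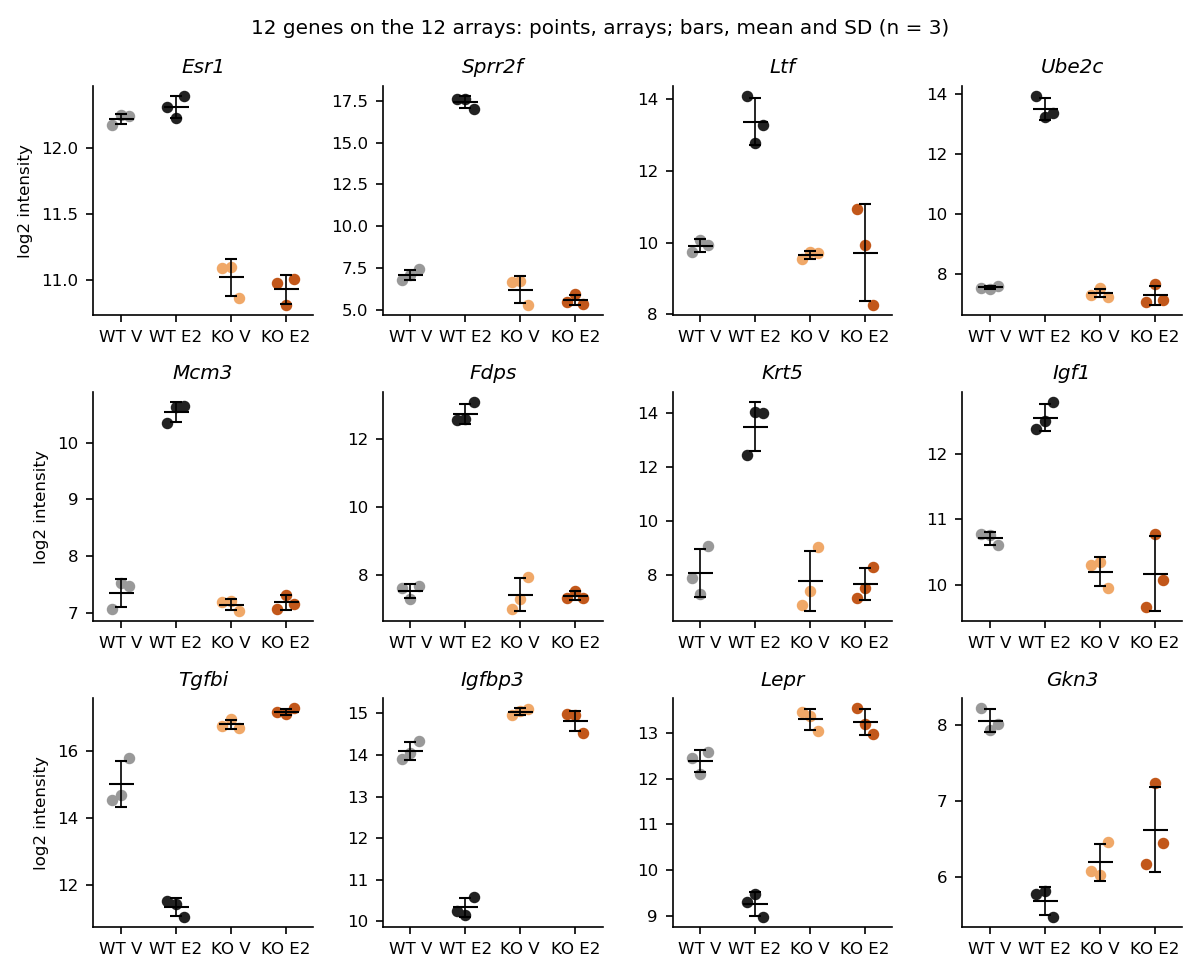
Log2 intensity of 12 genes on each of the 12 arrays, with the mean and SD of each group (n = 3; WT, wild-type littermates; KO, ERaUtcKO; V, vehicle). In the first 2 rows all genes but Esr1 are high in the littermate E2 arrays alone; in the last row the littermate E2 arrays are the low ones, and Tgfbi, Igfbp3 and Lepr are higher in ERaUtcKO than in littermate vehicle arrays.

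Genes of cell division responded less in ERaUtcKO throughout. All 23 measured genes of mitosis and cytokinesis had a lower interaction (15.5% of all genes did), with a median of -3.28. Each of the 23 rose in littermates (median 3.25) while the ERaUtcKO median was -0.06. Bub1b, a spindle checkpoint kinase, had a value of 0.70 in ERaUtcKO against 2.23 in littermates. Ube2c, a ubiquitin-conjugating enzyme of the anaphase-promoting complex, was 7.55, 7.51 and 7.61 in littermate vehicle arrays, 13.91, 13.22 and 13.35 after E2, 7.31, 7.52 and 7.25 in ERaUtcKO vehicle arrays and 7.06, 7.66 and 7.15 after E2. Both ERaUtcKO groups overlapped with each other and lay over 5 log2 units below the littermate E2 arrays, which gave an interaction of -6.01 ± 0.45 (adjusted p = 2.34e-09). Mki67, the proliferation marker Ki-67, rose by 4.81 ± 0.48 in littermates and had an interaction of -5.06 ± 0.69 (adjusted p = 5.75e-06). Top2a, the topoisomerase that untangles chromosomes, had -4.91 ± 0.71. Outside the list, Kpna2, a nuclear import receptor, had -5.38 ± 0.33 and the linker histone gene H1f5 -5.19 ± 0.60. Kpna2 was also lower in ERaUtcKO under vehicle (-0.96, adjusted p = 0.021), a call lost on leaving out any of 3 arrays (highest adjusted p = 0.107). None of the 23 was called between genotypes under vehicle, at a median difference of -0.27. Mki67 was 6.70, 6.99 and 6.26 in ERaUtcKO against 7.81, 7.63 and 7.62 in littermates (-1.04, adjusted p = 0.256).

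Genes of DNA replication were called in 23 of 24 cases, all lower (15.5% of all genes were), with a median of -1.38. Gins3 was the one not called (-0.18). Mcm3, a subunit of the replicative helicase, was 7.07, 7.52 and 7.47 in littermate vehicle arrays, 10.35, 10.63 and 10.64 after E2, 7.19, 7.20 and 7.03 in ERaUtcKO vehicle arrays and 7.07, 7.32 and 7.16 after E2. The littermate E2 arrays were the high ones and the other 3 groups overlapped (interaction -3.15 ± 0.23, adjusted p = 2.29e-09). Rrm1, the large subunit of ribonucleotide reductase, had an interaction of -3.22 ± 0.25 (adjusted p = 3.69e-09). Among 18 cyclin, kinase and E2F-family genes of cell cycle entry 13 were lower, 0 higher and 5 not called. Ccna2, cyclin A2, had -3.63 ± 0.37 and E2f8, a repressor of the E2F family, -3.11 ± 0.23 (at the level of the control probe sets on 5 of the 6 ERaUtcKO arrays), whereas Ccnd2, Ccnd3, Ccne2, Cdk6 and E2f2 were not called, with values between -0.32 and 0.49. Of 7 inhibitors of cyclin-dependent kinases, Cdkn1a was lower (-2.25 ± 0.47, adjusted p = 0.000717) and Cdkn1c higher (0.65 ± 0.16, adjusted p = 0.00423). These shares of 14.3% each lay near or below the 15.5% lower and 17.3% higher of all genes.

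Promoters of these genes are given because their members moved together. RefSeq promoters on build GRCm38.p6, each from 250 bases before to 50 bases after the gene start, were found for 17970 of the 30142 genes. Of the 20 mitosis genes with a promoter, 15 (75%) held the letters CCAAT and 15 (75%) the letters TTTGAA, the core of the cell cycle homology region, on either strand. Over all 17970 promoters the shares were 41.6% and 18.3%. An E2F site (TTTCCCGC, TTTGGCGC, TTTCGCGC or TTTGCCGC) was in 9 of 20 DNA replication promoters (45%), in 0 of 20 mitosis promoters and in 3.17% of all. Below, capitals mark CCAAT and TTTGAA on either strand in the first 3 (in Ube2c a CCAAT on each strand overlaps as CCAATTGG), the E2F sites alone in Mcm3 and the sterol regulatory element TCACNCCAC in Hmgcs1, an enzyme of cholesterol synthesis described next. The regions are chr2:164769679-164769978 (plus strand) for Ube2c, chr9:70421505-70421804 (minus) for Ccnb2, chr7:135716330-135716629 (minus) for Mki67, chr1:20820263-20820562 (minus) for Mcm3 and chr13:119690101-119690400 (plus) for Hmgcs1.
Ube2c: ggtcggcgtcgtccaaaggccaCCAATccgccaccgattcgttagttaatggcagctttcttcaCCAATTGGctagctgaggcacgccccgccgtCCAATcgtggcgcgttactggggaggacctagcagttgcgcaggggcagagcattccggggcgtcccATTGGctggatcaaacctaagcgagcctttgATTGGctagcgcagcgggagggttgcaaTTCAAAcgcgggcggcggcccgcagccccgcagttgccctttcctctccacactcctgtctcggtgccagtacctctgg
Ccnb2: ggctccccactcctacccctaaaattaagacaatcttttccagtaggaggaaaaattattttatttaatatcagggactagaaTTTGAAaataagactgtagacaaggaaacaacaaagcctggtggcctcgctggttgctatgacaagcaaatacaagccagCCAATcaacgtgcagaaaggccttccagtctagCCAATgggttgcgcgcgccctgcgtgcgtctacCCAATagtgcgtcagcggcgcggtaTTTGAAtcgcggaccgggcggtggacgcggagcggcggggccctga
Mki67: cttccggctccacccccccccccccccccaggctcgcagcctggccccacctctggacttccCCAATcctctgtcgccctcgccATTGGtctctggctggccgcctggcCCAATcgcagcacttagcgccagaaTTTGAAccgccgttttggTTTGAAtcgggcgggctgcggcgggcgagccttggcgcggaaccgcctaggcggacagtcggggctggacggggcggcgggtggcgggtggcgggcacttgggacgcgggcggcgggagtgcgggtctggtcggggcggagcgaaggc
Mcm3: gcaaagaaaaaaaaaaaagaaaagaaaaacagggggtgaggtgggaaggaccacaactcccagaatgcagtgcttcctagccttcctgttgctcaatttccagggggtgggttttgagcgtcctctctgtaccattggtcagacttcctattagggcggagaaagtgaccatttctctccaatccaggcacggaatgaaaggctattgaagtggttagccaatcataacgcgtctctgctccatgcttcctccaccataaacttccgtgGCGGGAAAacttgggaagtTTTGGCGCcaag
Hmgcs1: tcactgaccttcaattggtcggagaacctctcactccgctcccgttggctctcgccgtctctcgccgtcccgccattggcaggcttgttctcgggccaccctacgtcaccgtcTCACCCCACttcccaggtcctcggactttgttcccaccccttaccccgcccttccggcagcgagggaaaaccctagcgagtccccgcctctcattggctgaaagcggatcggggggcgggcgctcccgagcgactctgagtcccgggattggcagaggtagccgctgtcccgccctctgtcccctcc
The full palindromic oestrogen response element was in 11 of the 17970 promoters (0.0612%) and in none of those of the mitosis, DNA replication, cyclin and E2F, cholesterol, late secretory, early oestrogen, folding and ribosome biogenesis lists. A match describes letters in this window and shows no binding.

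Cholesterol synthesis genes responded less in ERaUtcKO. All 14 measured genes of the pathway had a lower interaction (15.5% of all genes did), with a median of -1.88. All 14 rose in littermates (median 1.90) against an ERaUtcKO median of 0.02. Fdps, which makes farnesyl diphosphate, was 7.60, 7.29 and 7.66 in littermate vehicle arrays, 12.56, 12.59 and 13.08 after E2, 6.99, 7.29 and 7.93 in ERaUtcKO vehicle arrays and 7.31, 7.53 and 7.30 after E2. Its 3 other groups overlapped below 8 and the littermate E2 arrays stood above 12 (interaction -5.25 ± 0.38, adjusted p = 1.6e-09). Idi1, the isomerase one step earlier, had -4.39 ± 0.40 (adjusted p = 3.39e-08), Sqle, squalene epoxidase, -3.70 and Hmgcs1, the synthase just before the reductase, -3.45. The smallest was Pmvk, at -0.67 (0.32 in ERaUtcKO against 0.99 in littermates), whose call was lost (highest adjusted p = 0.053) on leaving out either of 2 arrays. CCAAT was in 11 of the 11 promoters found for the pathway and the sterol element in 1 of 11 (9.09%, against 1.47% of all). Of 9 fatty acid genes 4 were lower (44.4%, against 15.5% of all genes), led by Fads2, a desaturase (-1.74 ± 0.37), and 5 were not called. Those not called included Fasn and Me1, at -1.76 and -2.61, beside the uneven adipocyte signal given above.

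The protein-making machinery followed the same pattern. Of 19 genes for folding and import of proteins in the endoplasmic reticulum 16 were lower, 1 higher and 2 not called (median -1.42). The counts of this paragraph are read against the 15.5% lower and 17.3% higher of all genes. Calr, the chaperone calreticulin, had an interaction of -2.95 ± 0.25 (adjusted p = 9.77e-09), Pdia6, a disulfide isomerase, -2.81 ± 0.26 (adjusted p = 4.3e-08), and Hspa5, the chaperone BiP, -1.83. The exception was Dnajb9, a co-chaperone, which fell in littermates by 0.64 and had an interaction of 0.62 ± 0.19 (adjusted p = 0.018), lost without the second ERaUtcKO vehicle array (adjusted p = 0.0665) and with arrays centred (adjusted p = 0.0573). Ribosome biogenesis genes were lower in 15 of 18 cases and higher in 0, with Fbl, the nucleolar methyltransferase fibrillarin, at -1.89 ± 0.25 and Dkc1, dyskerin, at -1.44 ± 0.18. Of 9 heat-shock genes 6 were lower, among them Hspd1, a mitochondrial chaperonin, at -1.68 ± 0.16, and 3 were not called.

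**Figure D3:**
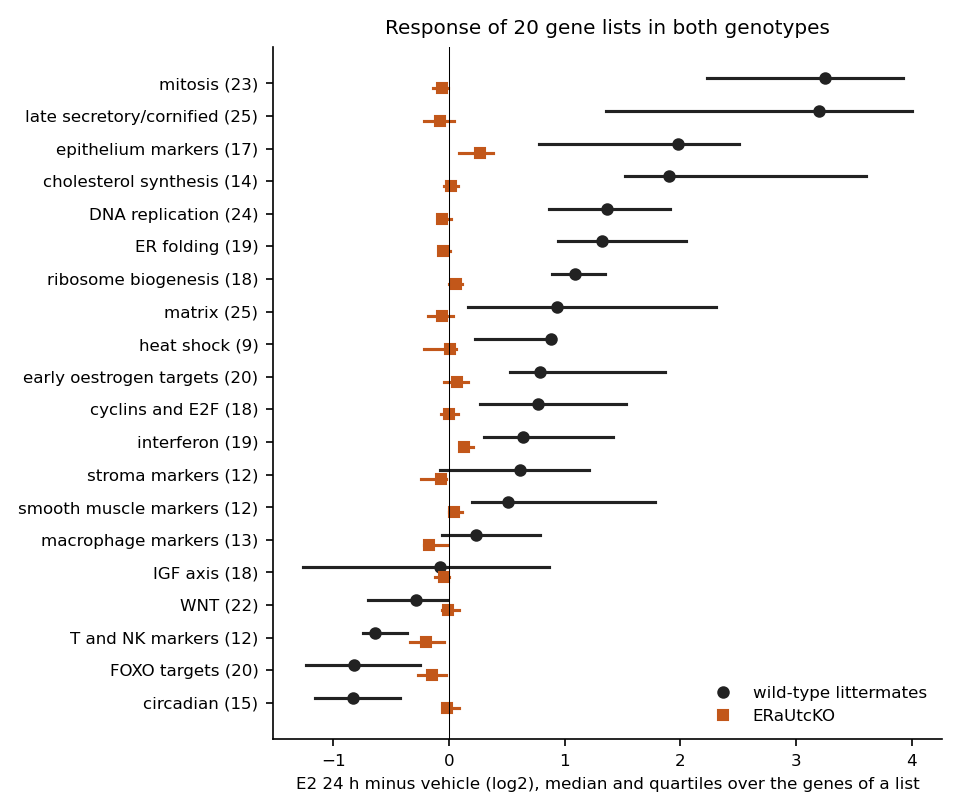
Median (symbol) and quartiles (line) of the E2 response over the measured genes of 20 lists, in wild-type littermates and in ERaUtcKO, in log2 units with the number of genes in brackets. Littermate medians run from -0.83 for circadian genes to 3.25 for mitosis, while every ERaUtcKO median lies between -0.20 and 0.27.

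Early oestrogen targets responded less in part. Of 20 genes known to respond within hours, 16 still rose in littermates at 24 h (median 0.79), 12 had a lower interaction, 2 a higher one and 6 no call. Over all genes 15.5% were lower and 17.3% higher. Nr4a1, an immediate-early nuclear receptor, was 6.20, 6.18 and 6.53 in littermate vehicle arrays, 8.52, 10.33 and 9.30 after E2, 6.61, 6.73 and 6.44 in ERaUtcKO vehicle arrays and 7.0, 6.62 and 6.84 after E2. The littermate E2 arrays varied most but stood above the rest (interaction -2.85 ± 0.56, adjusted p = 0.000439). Mad2l1, a spindle checkpoint gene, had -2.37 ± 0.33 (adjusted p = 7.5e-06). Sox4, a transcription factor, went the other way: it fell by 1.46 in littermates, its interaction was 1.28 ± 0.29 (adjusted p = 0.00166), and it was already lower in ERaUtcKO under vehicle by 1.23 (adjusted p = 0.000843).

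The receptor targets Pgr and Greb1 were lower in ERaUtcKO under vehicle. Pgr, the progesterone receptor, was 13.81, 13.90 and 13.94 in littermate vehicle arrays, 14.64, 14.81 and 14.69 after E2, 12.76, 12.92 and 13.10 in ERaUtcKO vehicle arrays and 13.05, 13.22 and 13.63 after E2. Every ERaUtcKO array lay below every littermate array, by 0.95 under vehicle (adjusted p = 0.00179). Pgr rose by 0.83 ± 0.17 in littermates (adjusted p = 0.000375); the ERaUtcKO difference of 0.37 ± 0.17 did not pass (adjusted p = 1.0), and neither did the interaction of -0.46 (95% interval -0.97 to 0.05, adjusted p = 0.152). The promoter that drives the Cre is that of this gene. An effect of the Cre on Pgr and one of the lost receptor therefore cannot be told apart here. Greb1, a co-regulator of oestrogen receptor alpha, was lower in ERaUtcKO under vehicle by 0.63 (adjusted p = 0.00327). Its interaction of -0.48 ± 0.17 (adjusted p = 0.0368) was no longer called when any of 8 arrays was left out (highest adjusted p = 0.103).

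The IGF axis was called in both directions. Of 18 measured genes 6 were lower (33.3%, against 15.5% of all genes), 6 higher (33.3%, against 17.3%) and 6 not called. Igf1 was 10.78, 10.76 and 10.60 in littermate vehicle arrays, 12.38, 12.49 and 12.78 after E2, 10.30, 10.35 and 9.95 in ERaUtcKO vehicle arrays and 9.66, 10.78 and 10.07 after E2. It rose 3.57-fold in littermates, and no ERaUtcKO array reached a littermate E2 array (interaction -1.87 ± 0.29, adjusted p = 2.97e-05). Igfbp5, a binding protein of IGF1, had -2.84 ± 0.42 (adjusted p = 1.83e-05).

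The genes of that axis that E2 lowers did not come down in ERaUtcKO. Igfbp3, which holds IGF1 in a complex, was 13.91, 14.04 and 14.33 in littermate vehicle arrays and 10.25, 10.15 and 10.59 after E2. In ERaUtcKO it was 14.95, 15.07 and 15.11 under vehicle and 14.98, 14.95 and 14.53 after E2, above each littermate array. The interaction was 3.54 ± 0.30 (adjusted p = 1.4e-08). Igf1r, the IGF1 receptor, had 1.40 ± 0.20 (adjusted p = 9.62e-06) and Irs2, the adaptor that carries its signal, 2.14 ± 0.33 (adjusted p = 2.65e-05). Stc1, a secreted inhibitor of the protease that frees IGF1 from its binding proteins, had 3.18 ± 0.56 (adjusted p = 0.000135) and Pappa, that protease, 2.05. Under vehicle Igf1r was higher in ERaUtcKO by 0.92 (adjusted p = 0.000316), Stc1 by 2.40 (adjusted p = 0.000767) and Igfbp3 by 0.95 (adjusted p = 0.0116, and 0.0688 without the first littermate vehicle array), whereas Irs2 did not differ (-0.17, adjusted p = 0.733).

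The 12 highest interactions belonged to genes that fell in littermates and were not called in the ERaUtcKO response. Tgfbi, a secreted adhesion protein, was 14.52, 14.68 and 15.79 in littermate vehicle arrays, 11.52, 11.43 and 11.03 after E2, 16.74, 16.95 and 16.68 in ERaUtcKO vehicle arrays and 17.15, 17.10 and 17.27 after E2. The 4 groups did not overlap, and the littermate fall was 12.7-fold. Its interaction was 4.05 ± 0.36 (adjusted p = 1.95e-08). Inmt, an N-methyltransferase, followed at 3.92 ± 0.71 (adjusted p = 0.000181), then Igfbp3 and Stc1, Lepr, the leptin receptor, at 3.06 ± 0.27 (adjusted p = 1.89e-08) and Amy1, an amylase, at 2.94 ± 0.63 (adjusted p = 0.000954). The remaining 6 were Cdr1 (2.90), Galnt15 (2.84), Pamr1 (2.84), Apod, apolipoprotein D (2.83), Gkn3 (2.81) and Speer4e (2.68).

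Several of these 12 differed under vehicle. Inmt was higher in ERaUtcKO under vehicle by 2.86 (adjusted p = 0.00136), Tgfbi by 1.79 (adjusted p = 0.00013) and Speer4e by 1.38 (adjusted p = 0.000939). Lepr was higher by 0.91 (adjusted p = 0.00641, and 0.0502 without the second littermate vehicle array). Gkn3 was the opposite case: it was 8.22, 7.93 and 8.02 in littermate vehicle arrays and 6.08, 6.02 and 6.46 in ERaUtcKO ones, a difference of -1.87 (adjusted p = 0.000639). After E2 it was 5.77, 5.81 and 5.47 in littermates and 6.17, 7.24 and 6.44 in ERaUtcKO, so its positive interaction came with a low starting level. Cdr1 did not differ under vehicle (-0.01, adjusted p = 0.993).

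The lowest p in the ERaUtcKO response itself belonged to Slc15a2, a peptide transporter, which was chosen after its values were seen. It was 9.57, 10.84 and 9.02 in littermate vehicle arrays, 9.30, 9.05 and 9.34 after E2, 10.50, 9.69 and 10.88 in ERaUtcKO vehicle arrays and 7.75, 7.83 and 8.52 after E2. The ERaUtcKO groups did not overlap, and the difference of -2.32 ± 0.38 had an adjusted p of 0.0988. It was called when any of 3 vehicle arrays was left out: at adjusted p = 0.00931 and 0.0378 without the second or the third littermate array, and at 0.0428 without the second ERaUtcKO array.

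Over all genes, 607 were higher (2.01%) and 651 lower (2.16%) in ERaUtcKO under vehicle. The total of 1258 (4.17%) rested on single arrays: it ranged from 627 to 2083 as each of the 12 was left out, and fell to 627 and 710 without the first and second littermate vehicle arrays, rose to 2083 without the third, and was 747 and 703 without the first and second ERaUtcKO vehicle arrays. After E2 7244 genes were higher (24%) and 6754 lower (22.4%) in ERaUtcKO, and with arrays centred 5422 were higher and 7524 lower.

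Genes of the circadian clock and its output and genes that FOXO factors switch on stood on the higher side. Among 15 circadian genes 9 had a higher interaction (17.3% of all genes did) and 1 a lower one, with a median of 0.82. Bhlhe41, a clock repressor, had 1.68 ± 0.28, Hlf, an output activator, 1.64 ± 0.23, and its partner Dbp 1.10, while Bhlhe40, a paralogue of Bhlhe41, had -1.43 ± 0.21 (adjusted p = 1.57e-05). The core activators Clock and Arntl were not called (-0.21 and -0.38). Among 20 FOXO targets 9 were higher, 0 lower and 11 not called (median 0.62). Txnip, an inhibitor of thioredoxin and glucose uptake, was 15.96, 16.32 and 16.66 in littermate vehicle arrays, 14.48, 14.54 and 13.65 after E2, 16.94, 17.20 and 16.26 in ERaUtcKO vehicle arrays and 17.07, 17.15 and 16.92 after E2. The littermate E2 arrays were the low ones (interaction 2.34 ± 0.42, adjusted p = 0.000149), and Fbxo32, a ubiquitin ligase of muscle wasting, had 1.63.

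WNT, hedgehog and growth factor genes were called at shares to be read against the 17.3% higher and 15.5% lower of all genes. Of 22 WNT genes 8 were higher and 2 lower, but 4 were higher with arrays centred and 5 without the first ERaUtcKO E2 array. Sfrp2, a secreted WNT antagonist, had 1.93 ± 0.25 (adjusted p = 2.82e-06) and Wnt7a, an epithelial WNT ligand, 1.36 ± 0.30 (adjusted p = 0.00127), whereas Wnt5a, a stromal ligand, had -1.22 ± 0.22 (adjusted p = 0.000149). Of 18 progesterone and hedgehog genes 4 were higher and 3 lower, near the shares of all genes, and 2 were higher with arrays centred or without the second ERaUtcKO E2 array. Ptch1, the hedgehog receptor, had 1.82 ± 0.39 (adjusted p = 0.00109) and Fkbp4, a co-chaperone of the progesterone receptor, -1.96 ± 0.25 (adjusted p = 2.43e-06). The interaction of Ihh, the hedgehog ligand, was 0.49 ± 0.16 (adjusted p = 0.0238) and was lost on leaving out any of 4 arrays (highest adjusted p = 0.0841). Ihh did not exceed the control percentile on 3 of the 6 ERaUtcKO arrays. Ptch1 and Ihh were already lower in ERaUtcKO under vehicle, at -1.09 (limma adjusted p = 0.0264) and -0.46 (0.0221), as was Gli1 of the same list at -1.25 (0.00365). The Ptch1 and Ihh vehicle calls were lost on leaving out any of 5 and any of 3 arrays. The interaction of Wnt4 was 0.33 ± 0.13 (adjusted p = 0.0461) and was lost with 10 of the 12 (highest adjusted p = 0.119). Of 21 growth factor genes 1, the EGF-family ligand Nrg1, was lower (-1.49 ± 0.30, adjusted p = 0.000464; -0.57, not called, as the mean over its probe sets), 4 were higher, 1 with arrays centred and 2 without the first ERaUtcKO E2 array.

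Matrix genes were lower in 16 of 25 cases (64%, against 15.5% of all genes) and higher in 3 (12%, against 17.3%), with a median of -0.95. Col6a2, a chain of collagen VI, was 7.54, 7.66 and 7.99 in littermate vehicle arrays, 12.38, 12.15 and 12.47 after E2, 7.75, 7.82 and 7.44 in ERaUtcKO vehicle arrays and 7.72, 7.73 and 7.86 after E2. The 3 other groups overlapped within a narrow range, and the interaction was -4.50 ± 0.41 (adjusted p = 2.6e-08). Its partner Col6a1 had -3.50 ± 0.42 and Col1a1, of collagen I, -3.15 ± 0.50, while Dcn, the proteoglycan decorin, had 0.82 ± 0.15 (adjusted p = 0.000218).

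Epithelial markers were lower in 13 of 17 cases (76.5%, against 15.5% of all genes) and higher in 1 (5.88%, against 17.3%), with a median of -1.64. Krt8, a keratin of simple epithelia, was 10.36, 10.72 and 11.01 in littermate vehicle arrays, 14.37, 14.64 and 14.74 after E2, 10.77, 11.19 and 11.56 in ERaUtcKO vehicle arrays and 11.11, 11.49 and 11.62 after E2. ERaUtcKO vehicle and E2 arrays overlapped (interaction -3.65 ± 0.44, adjusted p = 1.23e-06). Elf3, an epithelial transcription factor, had -3.49 ± 0.25 (adjusted p = 1.38e-09). The mean level of the 17 markers was 8.87 to 9.21 in littermate vehicle arrays and 9.08 to 9.56 in ERaUtcKO ones, against 10.77 to 11.00 after E2 in littermates and 9.44 to 9.72 in ERaUtcKO. It was thus higher after E2 in each littermate array, beside the lower interactions of secretory and division genes, and its part in them was not tested. Krt5, a keratin of basal and stratified epithelium and not one of the 17, was among the 12 lowest interactions (-5.53 ± 0.97, adjusted p = 0.00013), with littermate values of 7.89, 7.29 and 9.06 under vehicle and between 12.45 and 14.06 after E2. Adgrg7, an adhesion receptor, and Ceacam1, a cell adhesion molecule, completed those 12, at -5.35 and -4.88. Adgrg7 did not exceed the control percentile on any of the 6 ERaUtcKO arrays, so its value depends on the background.

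Smooth muscle and stromal markers were each lower in 5 of 12 cases, against 15.5% of all genes, and higher in 1. The lower stromal markers were Vim, Hoxa10, Lum, Col1a1 and Col3a1 and the higher one Dcn. Lum, Col1a1, Col3a1 and Dcn are also among the matrix genes above. The stromal markers Hoxa11 (-0.98), Hand2, Nr2f2, Thy1, Pdgfrb and Wt1 (-0.26 to 0.22) were not called. The higher smooth muscle call, Itga8, was lost with arrays centred and on leaving out any of 8 of the 12 arrays. Actg2, the enteric-type actin of the myometrium, had -2.70 ± 0.34 (adjusted p = 2.69e-06) and Des, desmin, -1.95 ± 0.37 (adjusted p = 0.00031), but Myh11, Mylk and Smtn were not called, between -0.54 and -0.22.

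Immune markers are read against the same 15.5% lower and 17.3% higher. Of 13 macrophage markers 4 were lower and 0 higher, with Cd14 at -1.28 ± 0.25 and C1qa at -1.23 ± 0.32, but Adgre1 and Csf1r, which define the cells, were not called (-0.27 and 0.04). Of 26 chemokine and cytokine genes 8 were lower and 1, Cxcl12, higher. The Cxcl12 call was lost with arrays centred and on leaving out any of 7 of the 12 arrays. Ccl11, which attracts eosinophils, was 10.01, 9.77 and 9.50 in littermate vehicle arrays, 12.21, 11.63 and 12.70 after E2, 9.51, 9.43 and 9.67 in ERaUtcKO vehicle arrays and 9.48, 10.49 and 9.18 after E2. One ERaUtcKO E2 array stood above its fellows and all stayed below the littermate E2 arrays (interaction -2.24 ± 0.44, adjusted p = 0.000406).

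Interferon-stimulated genes were lower in 8 of 19 cases (42.1%, against 15.5% of all genes), and in 5 without the first ERaUtcKO E2 array. Bst2, an antiviral membrane protein, had -2.48 ± 0.28 (adjusted p = 4.08e-07) and Oas1a, an RNA sensor, -1.96 ± 0.36 (adjusted p = 0.000194); the mean of the list in ERaUtcKO E2 arrays spread from 7.58 to 8.31. T and NK markers were higher in 4 of 12 cases (33.3%, against 17.3% of all genes), with Il7r at 0.92 ± 0.28 (adjusted p = 0.0153). Of 7 liver, 9 mast, 6 adipocyte and 2 red cell genes limma called 0, as it did with arrays centred or quantile-normalized, and 1 had an unadjusted p under 0.05. Without the third littermate vehicle array 2 mast genes and 1 red cell gene were called.

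Genes that responded in another set of mice were counted next. In C57Bl6 wild types, with 3 vehicle and 3 E2 arrays that enter none of the fits above, 1454 genes rose (4.82%) and 726 fell (2.41%) by 2-fold or more after 24 h. Of the 1454, 1402 also rose in the littermates, 1333 had a lower interaction (91.7%) and 0 a higher one. On the ERaUtcKO E2 arrays their median level was 8.22, 8.42 and 8.31, within or beside the vehicle range of 8.16 to 8.34, while littermates went from between 8.27 and 8.39 to between 10.25 and 10.32. The 95% interval of the ERaUtcKO response left out a 2-fold rise for 1434 of them, and 40 (2.75%) had an unadjusted p under 0.05.

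The 726 genes that fell in C57Bl6 mice were less completely matched. In littermates 531 fell, and 452 (62.3%) had a higher interaction and 1 a lower one, with median responses of -0.95 in littermates and -0.08 in ERaUtcKO. In ERaUtcKO 54 (7.44%) had an unadjusted p under 0.05, against 3.82% of all genes, and the interval left out a 2-fold fall for 611 (84.2%). The list holds all 7 of the liver genes, and its lowest ERaUtcKO value, -4.26, is that of the liver gene Apoa2. Under vehicle, 85 of the 726 were higher in ERaUtcKO (11.7%, against 2.01% of all) and 47 lower (6.47%, against 2.16%). Among the 1454 risen genes 23 were higher (1.58%) and 50 lower (3.44%).

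**Figure D4:**
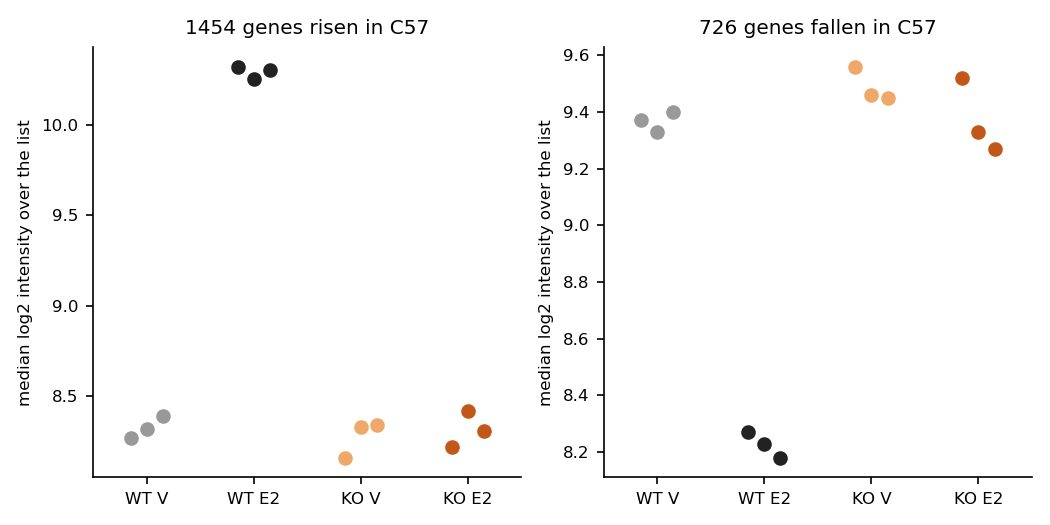
Median log2 intensity on each of the 12 arrays over the genes that rose (left) or fell (right) by 2-fold or more after 24 h of E2 in a separate set of C57Bl6 wild types (WT, littermates; KO, ERaUtcKO; V, vehicle). Only the littermate E2 arrays leave the vehicle range by more than 1 log2 unit, to between 10.25 and 10.32 on the left and between 8.18 and 8.27 on the right.

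The interaction was also set beside that in Ex3aERKO mice, an Esr1-null line, with 9 arrays of its own (2 and 3 littermate vehicle and E2 arrays, 2 and 2 knockout arrays). There 7031 genes had a called interaction (23.3%), 3942 of them lower (13.1%). The 2 sets share no array, but the Ex3aERKO calls came from a joint fit of the 54 arrays of both. Their error estimate includes the ERaUtcKO arrays, so the 2 lists of calls are not independent. Called in both with the same sign were 5152 genes, 52% of the ERaUtcKO list and 73.3% of the Ex3aERKO list, with 5 of opposite sign. Across all 30142 genes the interactions had a Pearson r of 0.84, given as a description because genes are not independent replicates.

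In that joint fit of both sets limma called 0 genes for the difference between the 2 interactions. The lowest adjusted p was 0.257, 1826 genes (6.06%) had an unadjusted p under 0.05, and the 7 other fits also gave 0, and leaving out single arrays gave 0 to 2 (B4galt5 and Ighv8-4 without the first Ex3aERKO E2 array, Gm23136 without 1 Ex3aERKO vehicle array, Mir669e without the first littermate E2 array of the ERaUtcKO set). This does not show that the lines act alike, since 3 of the 4 groups of that set hold 2 arrays and the differences have wide errors. That of Sprr2f was -3.71 ± 2.46 (limma adjusted p = 0.896), that of Nr4a1 -2.75 ± 0.75 (0.374), that of Igf1 -0.94 ± 0.49 (0.85) and that of Ube2c -0.01 ± 0.97 (1.0). For mitosis the medians were -3.28 and -3.35, for cholesterol synthesis -1.88 and -1.79, and for early oestrogen targets -0.75 and -0.14, with 12 and 3 genes lower.

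**Figure D5:**
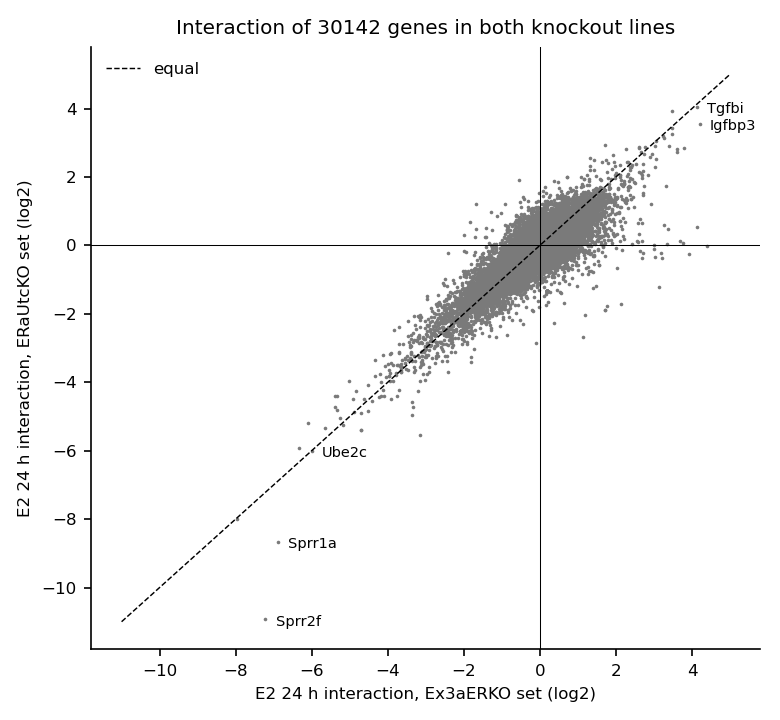
The E2 24 h interaction of each of 30142 genes in the Ex3aERKO set (horizontal, 9 arrays) and in the ERaUtcKO set (vertical, 12 arrays), in log2 units, with a dashed line of equal values. The cloud runs along the line, with Ube2c at -6.0 and -6.01, and Sprr1a and Sprr2f lie below it.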

How the data were processed

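Total RNA of frozen uterus was labelled with the Affymetrix WT Plus kit and hybridised, 1 sample an array, per the labels' protocols. The authors deposited 1 table of log2 intensities per probe set. Their background correction, summarisation and normalization are not given in the sources used here, and a scaling between arrays can move small differences. The table was used as deposited. Of 72688 probe sets, 30604 had 1 gene symbol in the platform annotation; 2146 with several symbols and 39938 outside the annotation were left out. Symbols were updated through RefSeq, and the probe set with the highest mean stood for a gene, which gave 30142 genes. limma 3.58.1 in R 4.3.3 fitted a mean per group over the 29 arrays of the ERaUtcKO set (10 groups, 19 residual degrees of freedom, 22.6 after moderation); the other arrays lend only their spread. The Ex3aERKO interaction and the difference between lines used 54 arrays and the C57Bl6 list 14. Adjusted p values are limma's with Benjamini-Hochberg adjustment over all 30142 genes, two-sided. The fit was tested on simulated data. Per the series' design text, replicates set apart by principal components had been dropped from groups with 2 arrays; the 4 groups of the interaction have 3 each.

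The comparison and the 40 gene lists (22 of pathways and 18 of cell types, 525 of 577 genes measured) were chosen with earlier results of these data known. Named genes are the 12 lowest and 12 highest called interactions among protein-coding genes, passing over predicted genes, a set of receptor targets and growth genes, and up to 4 members of each list; further members were named after their values were seen. Alternatives were another set of arrays in the fit, centring, quantile normalization, a filter on dim genes, another variance moderation, the mean over probe sets, the replicate number as a block, and leaving out each array.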

Additional observations from a re-analysis of the deposited data

Results flagged for a closer look

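The response to E2 differed between genotypes for 9907 of 30142 genes by limma's test of the interaction itself, which is what set this result apart. All 4 groups hold 3 arrays, so no test for a single outlying array was made.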

How the results depend on the processing

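With arrays centred, 2897 genes had a higher interaction, and genes that fell in littermates numbered 5357, against 6456 with quantile normalization and 6815 without dim genes; genes lower in ERaUtcKO under vehicle numbered 420. The cause was not tested. Leaving out each of the 12 arrays gave 8212 to 11218 called interactions (3934 to 6476 higher, 4189 to 4742 lower, 2842 to 3383 at 2-fold or more), 13685 to 16981 littermate responses (5532 to 6168 higher, 7996 to 10911 lower), 0 to 1 ERaUtcKO responses, 12337 to 14283 genotype differences after E2 (5955 to 7478 higher, 6164 to 6805 lower) and 627 to 2083 under vehicle (336 to 763 higher, 274 to 1320 lower). For the difference between lines it gave 0 to 1, and 0 to 2 over the Ex3aERKO arrays, an alternative chosen after seeing the data. Of the genes that rose in C57Bl6 mice 1274 to 1343 had a lower interaction, and of those that fell 417 to 447 a higher one; leaving out C57Bl6 arrays, also chosen after seeing the data, gave 1276 to 1391 and 448 to 521. Over the genes named by rule, no interaction called in the main fit or in the setting compared changed its direction. Changes of sign where neither fit called the gene were not counted. Centring ended 14 calls, quantile normalization 5, the fit of 12 arrays alone 7 and the mean over probe sets 1. Over all the fits without 1 array 103 calls ended.

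Replicate numbers did not pair the arrays: of 18 pairs with the same number 1 correlated over 0.1 (range -0.18 to 0.22), and 3 of 12 arrays correlated best with their own number. With the replicate block 9717 interactions were called (5085 higher, 4632 lower), 16231 littermate responses, 0 ERaUtcKO responses, 13888 differences after E2, 1082 under vehicle and 0 between lines. With 3 arrays a group, small responses in ERaUtcKO would not be detectable.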

Other observations

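Genes of ion and water transport, not described above, are read against the 15.5% of all genes with a lower and 17.3% with a higher interaction. Of 15 measured, 3 were lower and 1 higher, near the share of all genes for the lower ones. The higher call, Scnn1a, was lost with arrays centred, with quantile normalization and on leaving out any of 7 of the 12 arrays. Cftr, the chloride channel of epithelial secretion, had an interaction of -2.32 and Clca1, a secreted regulator of chloride channels, one of -4.85. Of 11 endothelial markers 2 were higher and of 9 gland markers 1 was lower (Sox9, a transcription factor, at -2.17), shares near or below those of all genes. The interaction leaves out differences already present under vehicle. There 2 of the 9 gland markers were lower in ERaUtcKO (2.16% of all genes were): Cxcl15 at -4.11 (limma adjusted p = 1.66e-05) and Aldh1a1 at -1.97 (0.000355). Calb1 was higher at 0.99 (0.0386), a call lost on leaving out any of 5 arrays.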
